A study of Homo sapiens with 6 samples.

Results

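The 39 genes described here encode JmjC demethylases and hydroxylases, ALKBH and FTO enzymes, OGFOD proteins and related oxygenases that use 2-oxoglutarate. They were taken from a list of gene symbols, and all 39 were found among the 60660 gene IDs of the deposited files. All 39 were also among the 28015 genes that reached a value of 1 in 3 or more libraries and were tested. RNA was sequenced from OCI-AML3 cells, a long-established line derived from acute myeloid leukaemia, in 2 groups. The empty vector group (3 libraries) carried an empty lentiviral vector, pLenti in the titles, and the SLC2A3 group (3 libraries) was made to overexpress SLC2A3, the gene of the glucose transporter GLUT3. Every culture of both groups received 250 µM vitamin C, and no group without the vitamin was analysed here. The labels name neither the promoter of the vector nor whether the lines were single clones or pools, and do not say that replicates were separate cultures. P-values therefore measure the spread between these libraries, which may be technical. In bulk RNA, fewer cells with a transcript and less of it per cell cannot be told apart.

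The enzymes of this family bind iron and 2-oxoglutarate, a metabolite of the citric acid cycle, and use molecular oxygen to hydroxylate a substrate. Where the hydroxyl group is added to a methyl group on nitrogen, the methyl group is lost as formaldehyde, which is how JmjC proteins demethylate histone lysines and ALKBH enzymes demethylate DNA and RNA. Vitamin C keeps the iron in its reduced form, and GLUT3 carries glucose and the oxidised form of vitamin C. Transcript levels give the amount of message for each enzyme and do not measure its activity.

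Values are gene read counts that had been divided by 1 factor per library, called normalised reads here. Recovered totals were 31054462 to 35770556 reads per library. SLC2A3 itself stood at 1194, 1183 and 1257 normalised reads in the empty vector libraries and at 4056, 3716 and 4054 in the SLC2A3 libraries, as the labels state. All 6 myeloid markers had a mean of at least 10 normalised reads, and their sum ran from 35822 to 37053 with the empty vector and from 36172 to 41350 with SLC2A3. Summed markers of epithelial, fibroblast, T and erythroid cells reached at most 69.4, 63.3, 8.36 and 4.27 normalised reads in any library, with CD3D, CD3E, HBB and HBA1 at 0. The noncoding RNA RN7SL1 moved with the group and set libraries apart, at 538, 1812 and 705 normalised reads with the empty vector and 2233, 6026 and 1922 with SLC2A3, with replicate 2 highest in both. Its groups did not overlap, and it rose 3.33-fold by the group means (limma log2 fold change 1.74, adjusted p = 0.000861). Its part in the results was not tested beyond fits without those 2 libraries.

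The stretches before a RefSeq start of 4 genes are shown first. Of these genes, 3 (KDM5C, ALKBH2 and KDM3B) passed at least 1 of the tests below. The other, KDM3A, is a textbook target of the hypoxia-inducible factor HIF. Each is the 250 bases before the first start listed for the gene in RefSeq (GRCh38.p14), written 5′ to 3′ on the strand of the gene. The GENCODE 29 annotation starts these genes elsewhere. There KDM3A starts at 86440647, so its window lies inside the gene. The windows of KDM5C, ALKBH2 and KDM3B run past their GENCODE starts into the gene, so none is wholly upstream. Capitals mark ACGTG or GCGTG, the core letters of HIF binding sites, on either strand.
KDM5C (chrX:53225208-53225457, minus strand): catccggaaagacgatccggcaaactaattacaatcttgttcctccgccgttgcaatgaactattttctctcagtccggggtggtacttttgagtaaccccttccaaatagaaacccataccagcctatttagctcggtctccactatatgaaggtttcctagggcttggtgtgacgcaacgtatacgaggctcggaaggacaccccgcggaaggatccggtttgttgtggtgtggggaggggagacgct
ALKBH2 (chr12:109093473-109093722, minus strand): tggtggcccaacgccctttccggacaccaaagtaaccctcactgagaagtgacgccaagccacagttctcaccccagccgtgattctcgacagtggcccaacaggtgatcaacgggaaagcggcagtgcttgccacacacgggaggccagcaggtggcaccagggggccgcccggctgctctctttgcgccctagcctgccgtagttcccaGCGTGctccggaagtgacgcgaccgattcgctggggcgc
KDM3B (chr5:138352435-138352684, plus strand): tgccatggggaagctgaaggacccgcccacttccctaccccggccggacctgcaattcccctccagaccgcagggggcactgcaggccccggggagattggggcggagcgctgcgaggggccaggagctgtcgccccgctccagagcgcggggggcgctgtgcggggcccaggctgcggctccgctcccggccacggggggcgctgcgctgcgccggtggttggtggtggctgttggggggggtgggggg
KDM3A (chr2:86441121-86441370, plus strand): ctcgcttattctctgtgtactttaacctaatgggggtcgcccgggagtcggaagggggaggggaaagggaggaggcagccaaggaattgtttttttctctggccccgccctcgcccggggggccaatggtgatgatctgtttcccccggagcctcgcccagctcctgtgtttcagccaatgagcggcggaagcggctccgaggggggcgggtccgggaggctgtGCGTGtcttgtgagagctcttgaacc
KDM3A and ALKBH2 each held 1 match and KDM5C and KDM3B held none. Of the 39 genes, 35 had an entry in the set of RefSeq starts used here, and JMJD6, RIOX1, RIOX2 and ASPH did not. ACGTG or GCGTG stood in 23 of the 35 windows (65.7%) and in 43.1% of the 27305 gene windows of the same length. ACGTG alone stood in 5 of 35 (14.3%) and in 18.7% of all windows, and GCGTG in 22 of 35 (62.9%) and in 31.9%. CACGTG, which contains ACGTG, stood in the windows of HSPBAP1, KDM4B, KDM4C and KDM6A (11.4% of the 35) and in 6.49% of all. The windows of the 35 genes had a median GC content of 62.4%, against 58.0% for all windows. Whether base composition accounts for the shares of windows with a match was not tested. A match is a run of letters, not a bound site.

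The levels of the 39 genes spanned a wide range. To compare genes, values were divided by the length of all exons of the gene in GENCODE 29. This length joins the exons of every listed transcript, so genes with long unused exons are understated. KDM5B, with 25882 exon bases, ranked 4 of the 39 by reads and 20 per kb. Which exons were used was not tested. ALKBH7, a mitochondrial ALKBH protein linked to programmed necrosis, was highest at 1159 normalised reads per kb, and ALKBH5, a demethylase of N6-methyladenosine in RNA, was next at 1035. KDM3B, KDM5C and KDM2A followed at 635, 596 and 587 per kb. The lowest were OGFOD2 at 12.6 and KDM7A at 16.6 per kb, against a median of 194 per kb over the 39 genes. In reads, which also grow with length, single values ran from 38 for OGFOD2 to 6375 for KDM2A, and 35 of the 39 genes had at least 200 reads in every library. The other 4 were OGFOD2, KDM7A, ALKBH6 and TMLHE, so their changes are the least precise of the family. The spread between libraries of 1 group was small, with a median coefficient of variation of 5.10% for the empty vector and 5.23% for SLC2A3.

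**Figure D1:**
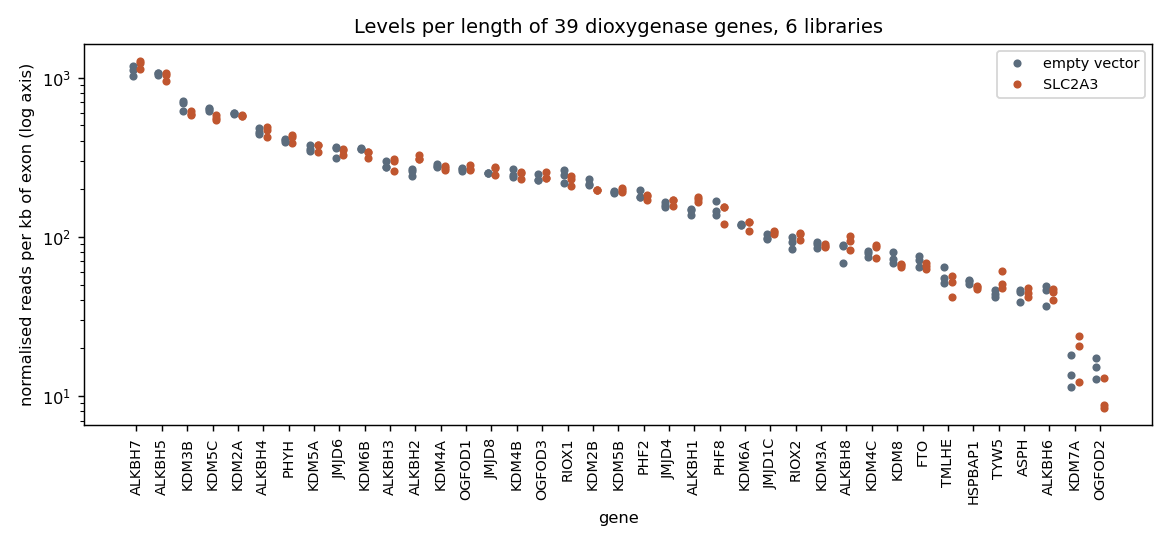
Normalised reads per kb of exon (log axis) of the 39 genes in each of the 6 libraries, ordered by mean level. ALKBH7 and ALKBH5 stand highest, OGFOD2 and KDM7A lowest, and the 2 groups lie close together for nearly every gene.

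The main comparison asks which of these enzymes changed in transcript level when GLUT3 was raised in vitamin C-treated leukaemia cells. 1 of the 39 genes passed, KDM5C, an eraser of histone H3 lysine 4 methylation, which was lower in the SLC2A3 group. None was called higher. By limma on log2(value + 1), with p-values adjusted by Benjamini-Hochberg over all 28015 tested genes and a threshold of 0.05, 1.49% of all tested genes were called, 0.692% higher and 0.800% lower. The share among the 39, 2.56%, is 1 gene and is near that background. An unadjusted p under 0.05 was reached by 7 of the 39 (17.9%) and by 11.8% of all tested genes. The median log2 fold change of the 39 was -0.00, with 19 above and 20 below 0, and that of all tested genes was 0.00.

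The log2 fold change was smaller than 0.1 in size for 22 genes and smaller than 0.2 for 34. For 29 of the 38 genes without a call, the 95% interval of the change lay within 1.25-fold in both directions. For the other 9 the interval reached that size. The groups did not overlap for 10 of the 39 genes (25.6%), 4 higher and 6 lower, against 16.3% of all tested genes, 8.04% higher and 8.27% lower. The 4 higher were JMJD1C, TYW5, ALKBH1 and ALKBH2, and the 6 lower were KDM5C, KDM2A, KDM2B, KDM6B, KDM8 and HSPBAP1. These 10 genes were named after their values were seen.

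**Figure D2:**
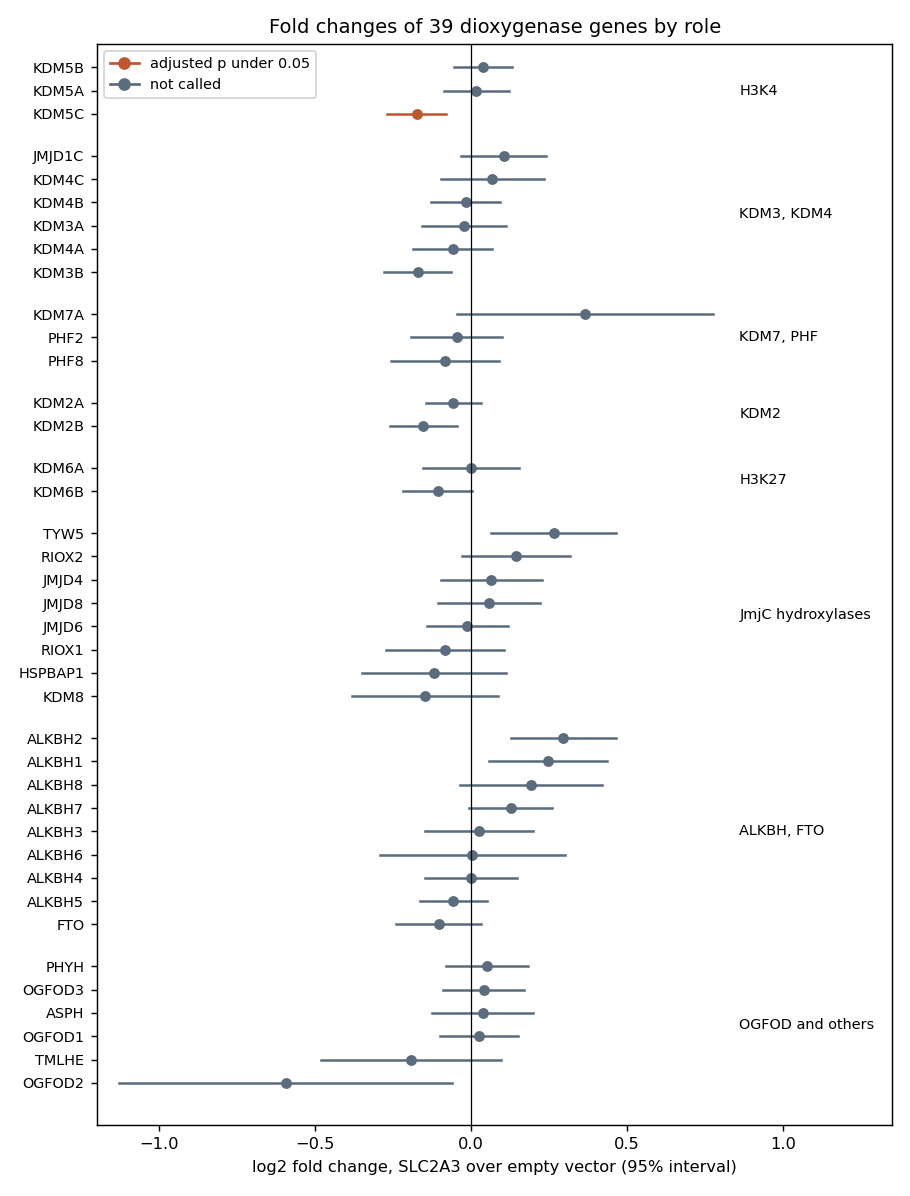
Log2 fold change (SLC2A3 over empty vector) of each of the 39 genes with its 95% interval from limma, grouped by role. KDM5C at -0.18 is the 1 gene past the threshold, and OGFOD2 and KDM7A have the widest intervals.

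KDM5A, KDM5B and KDM5C remove methyl groups from di- and trimethylated histone H3 lysine 4, a mark of active promoters. KDM5C (ENSG00000126012.12, chromosome X, 53191321 to 53225422, GRCh38) stood at 5379, 5540 and 5621 normalised reads in the empty vector libraries and at 5052, 4849 and 4749 in the SLC2A3 libraries. All 3 SLC2A3 libraries lay below all 3 empty vector libraries. The means were 5513 ± 123 and 4884 ± 154 (SD, n = 3 per group), 1.13-fold lower, with a log2 fold change of -0.18 (SE 0.046, limma adjusted p = 0.0463). edgeR's quasi-likelihood test on recovered reads also called it (adjusted p = 0.0214). Of the 6 limma fits with 1 library left out, it kept its call only without SLC2A3 replicate 1 (adjusted p = 0.0313). It lost the call when any other single library was left out, at adjusted p = 0.0746 to 0.239.

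Neither of the other H3K4 demethylases passed. KDM5B, a paralogue often raised in breast cancer, stood at 5026, 4922 and 4904 normalised reads with the empty vector and at 5073, 5237 and 4942 with SLC2A3. These groups overlapped, and the log2 fold change was 0.04 (95% interval -0.06 to 0.13). KDM5A, which also binds the retinoblastoma protein, had a log2 fold change of 0.02 (95% interval -0.09 to 0.12). The ratio of KDM5C to KDM5B within a library was 1.07, 1.13 and 1.15 with the empty vector and 0.996, 0.926 and 0.961 with SLC2A3. The ratio of KDM5C to KDM5A ran from 1.23 to 1.32 against 1.04 to 1.18. Both ratios were lower in every SLC2A3 library than in any empty vector library. An exact two-sided permutation test of each ratio gave p = 0.1, the smallest that 3 against 3 libraries allow (adjusted p = 0.133 over 4 paralogue pairs chosen after the values were seen).

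**Figure D3:**
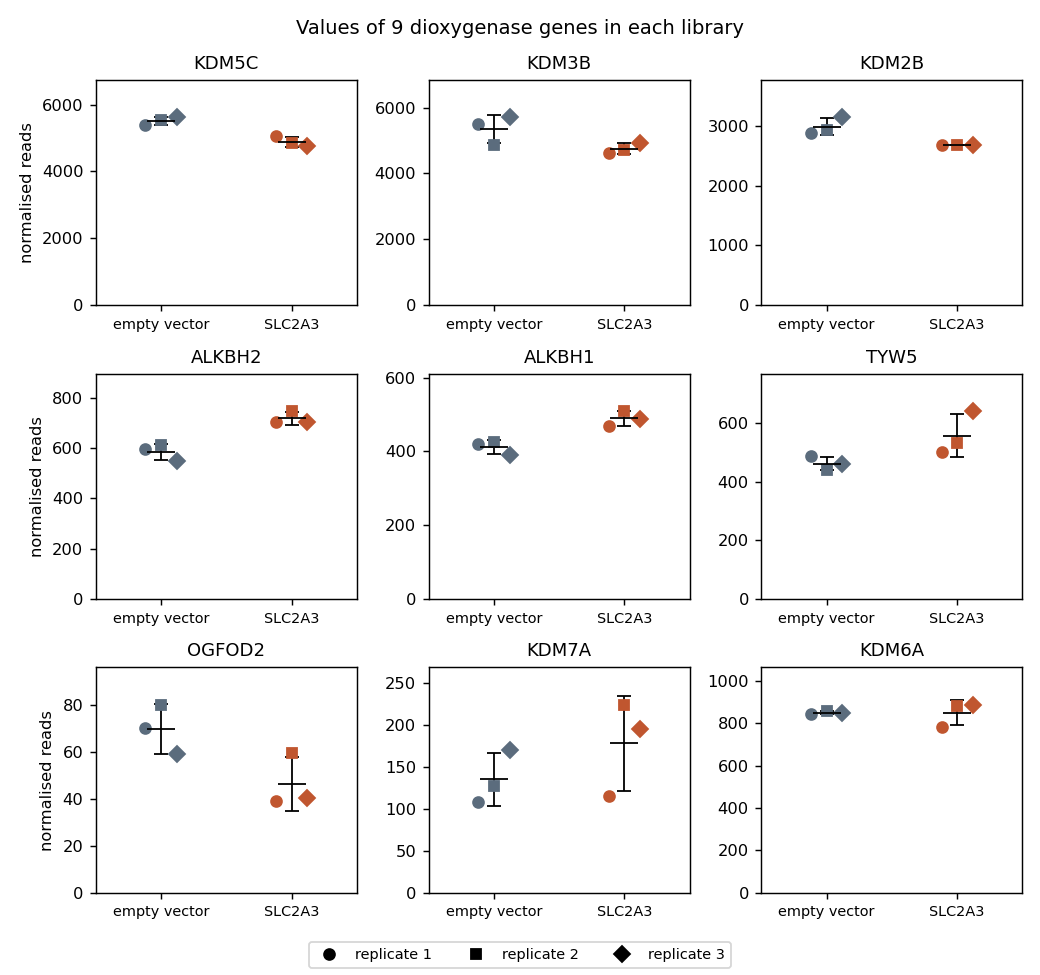
Normalised reads of 9 genes in each library, with the mean and SD of each group (n = 3) and every axis starting at 0. KDM5C, KDM2B, ALKBH2, ALKBH1 and TYW5 have groups that do not overlap, KDM3B overlaps through empty vector replicate 2, and KDM6A has equal means.

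The KDM3 and KDM4 enzymes act on histone H3 lysine 9, and KDM4 enzymes on lysine 36 as well. KDM3B, a demethylase of mono- and dimethylated lysine 9, stood at 5490, 4878 and 5705 normalised reads in the empty vector libraries and at 4613, 4701 and 4936 in the SLC2A3 libraries. Empty vector replicate 2 lay inside the range of the SLC2A3 group, so the groups overlapped. The means were 5357 ± 429 and 4750 ± 167 (SD, n = 3), with a log2 fold change of -0.17 (SE 0.052) that did not pass with limma (adjusted p = 0.113). edgeR called it (adjusted p = 0.0454). Without empty vector replicate 2, limma called it at a log2 fold change of -0.24 (adjusted p = 0.00791), and without both libraries highest in RN7SL1 at -0.23 (adjusted p = 0.00476). The ratio of KDM3B to KDM3A, the last of the 4 pairs, was 4.80, 4.01 and 4.58 with the empty vector and 3.94, 3.87 and 4.26 with SLC2A3, and it overlapped (exact two-sided permutation p = 0.2, adjusted p = 0.2).

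JMJD1C, which supports the growth of some acute myeloid leukaemias, had the largest positive value among these 6 genes. It stood at 1082, 1069 and 1148 normalised reads against 1203, 1192 and 1150. The groups just failed to overlap, and its log2 fold change of 0.10 did not pass (limma adjusted p = 0.597). KDM3A, KDM4B and KDM4C are known to be induced by HIF. Their log2 fold changes were -0.02 (95% interval -0.16 to 0.11), -0.02 (-0.13 to 0.09) and 0.07 (-0.10 to 0.23), and none of the 3 passed. In the same libraries BNIP3, a HIF-induced mitophagy receptor, had a log2 fold change of 0.67 (limma adjusted p = 9.96e-06). P4HA1, a HIF-induced collagen prolyl hydroxylase of the same enzyme superfamily, had 0.47 (limma adjusted p = 0.000583). BNIP3 and P4HA1 were picked from outside the gene lists. Other HIF targets were not counted here, and a HIF response was not tested. KDM4A, a demethylase of trimethylated lysines 9 and 36, had -0.06.

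KDM2A and KDM2B bind CpG islands through a zinc finger and remove dimethylation from histone H3 lysine 36, and KDM2B also recruits a variant Polycomb complex, PRC1.1. KDM2B stood at 2880, 2926 and 3140 normalised reads in the empty vector libraries and at 2680, 2670 and 2684 in the SLC2A3 libraries. The SLC2A3 values were close together, at 2678 ± 7.31 against 2982 ± 139 (SD, n = 3), and all lay below the empty vector values. Its log2 change of -0.15 did not pass (SE 0.052, limma adjusted p = 0.169), and DESeq2 was the only fit that called it (adjusted p = 0.0465). KDM2A stood at 6133, 6260 and 6261 against 5920, 6079 and 5932 normalised reads. Its groups did not overlap either, with a log2 fold change of -0.06 (95% interval -0.15 to 0.03) that did not pass.

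KDM6A and KDM6B remove methyl groups from histone H3 lysine 27, the mark set by the Polycomb complex PRC2. KDM6A, a tumour suppressor in several leukaemias, stood at 843, 859 and 847 normalised reads with the empty vector and at 781, 883 and 886 with SLC2A3. The means were equal within the spread, with a log2 fold change of -0.00 (95% interval -0.16 to 0.15). KDM6B, which is induced by inflammatory signals in macrophages, stood at 2579, 2573 and 2602 against 2456, 2282 and 2464 normalised reads. All SLC2A3 values were below the empty vector values, but the log2 fold change of -0.11 did not pass (limma adjusted p = 0.443).

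KDM7A, PHF8 and PHF2 read trimethylated lysine 4 through a PHD finger and demethylate lysine 9 or other lysines. KDM7A had the largest positive log2 fold change of the 39, 0.37 (95% interval -0.04 to 0.78, limma adjusted p = 0.503), at few reads. It stood at 108, 128 and 170 normalised reads against 115, 224 and 195, so SLC2A3 replicate 1 lay among the empty vector libraries. PHF8, which also acts on histone H4 lysine 20, stood at 1237, 1314 and 1522 against 1384, 1085 and 1384 normalised reads, with overlapping groups and a log2 fold change of -0.08. PHF2, the highest of these 3 genes per kb, stood at 990, 989 and 1093 against 1007, 1022 and 945 normalised reads and also overlapped, with -0.05. None of the 3 passed.

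The remaining JmjC proteins mostly hydroxylate proteins or RNA. TYW5, which hydroxylates wybutosine, a modified base beside the anticodon of phenylalanine transfer RNA, stood at 486, 439 and 459 normalised reads in the empty vector libraries and at 500, 530 and 640 in the SLC2A3 libraries. The groups did not overlap, and SLC2A3 replicate 3 was highest. Its log2 fold change of 0.26 (SE 0.097) did not pass (limma adjusted p = 0.223). KDM8, an arginine hydroxylase, stood at 276, 292 and 324 against 269, 261 and 273 normalised reads, apart between the groups but with a log2 fold change of -0.15 that did not pass (limma adjusted p = 0.696). JMJD6, a lysyl hydroxylase of splicing factors and the highest of these genes per kb, stood at 1878, 2153 and 2183 against 2097, 2118 and 1938 normalised reads, with a log2 fold change of -0.01 (95% interval -0.14 to 0.12).

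RIOX1 and RIOX2, histidine hydroxylases of ribosomal proteins, had log2 fold changes of -0.08 and 0.14. JMJD4, which hydroxylates a translation termination factor, had 0.06, and JMJD8, a JmjC protein of the endoplasmic reticulum, 0.06. HSPBAP1, which binds a small heat shock protein, had -0.12, with groups that did not overlap. None of the 8 genes of this group passed, and their median was 0.02.

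The ALKBH enzymes and FTO oxidise alkylated bases in DNA and RNA, and a few act on proteins. ALKBH2, which repairs alkylated bases in double-stranded DNA, had the largest positive log2 fold change of the group. ALKBH2 (ENSG00000189046.11, chromosome 12, 109088188 to 109093631, GRCh38) stood at 594, 611 and 549 normalised reads in the empty vector libraries and at 703, 746 and 703 in the SLC2A3 libraries. Every SLC2A3 library was above every empty vector library, with means of 585 ± 32.2 and 717 ± 25.0 (SD, n = 3), 1.23-fold higher. The log2 fold change was 0.30 (SE 0.081) and missed the threshold with limma (adjusted p = 0.0668). edgeR called it (adjusted p = 0.0422), as did limma without a filter on low values (adjusted p = 0.0489), and no limma fit with 1 library left out did. The ratio of ALKBH2 to ALKBH3, its relative that prefers single strands, was 0.911, 0.856 and 0.843 with the empty vector and 0.995, 1.02 and 1.14 with SLC2A3. These ratios did not overlap (exact two-sided permutation p = 0.1, the smallest possible, adjusted p = 0.133). This pair too was chosen after its values were seen, and the test could not pass 0.05.

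ALKBH1, an oxygenase of transfer RNA and mitochondrial nucleic acids, stood at 421, 426 and 391 normalised reads against 470, 509 and 489, also without overlap. This gene was chosen after its values were seen, and its log2 fold change of 0.25 (SE 0.093) did not pass (limma adjusted p = 0.238). ALKBH8, which modifies the wobble uridine of transfer RNA, had 0.19. ALKBH7, the highest of the 39 per kb, stood at 1485, 1720 and 1632 against 1798, 1840 and 1639 normalised reads, with overlapping groups and a log2 fold change of 0.13 (limma adjusted p = 0.464). ALKBH3, ALKBH6 and ALKBH4 had 0.02, 0.00 and -0.00, and the intervals of ALKBH3 and ALKBH4 lay between -0.15 and 0.20.

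FTO and ALKBH5 remove N6-methyladenosine from messenger RNA, and both are studied in acute myeloid leukaemia. FTO stood at 1620, 1385 and 1527 normalised reads with the empty vector and at 1337, 1412 and 1460 with SLC2A3. The groups overlapped, and the log2 fold change was -0.10 (95% interval -0.24 to 0.03). ALKBH5 had a log2 fold change of -0.06 (95% interval -0.17 to 0.05). Of 12 writers and readers of the same mark, 0 passed with limma or edgeR, and 2 had an unadjusted p under 0.05 (YTHDF2 and ZC3H13). The nearest was YTHDF2, a reader that promotes messenger RNA decay, with 0.10 (limma adjusted p = 0.402). Of 4 partner genes of ALKBH3 and ALKBH8, 0 passed with limma or edgeR and 0 had an unadjusted p under 0.05, and TRMT112, the cofactor of the ALKBH8 methyltransferase domain, had 0.10 (limma adjusted p = 0.428).

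OGFOD1, which hydroxylates a ribosomal protein, had a log2 fold change of 0.02, OGFOD3 had 0.04, and ASPH, the aspartyl hydroxylase of EGF-like domains, 0.04. PHYH, the peroxisomal hydroxylase that starts phytanic acid breakdown, was the highest of these genes per kb. It stood at 1393, 1362 and 1335 normalised reads against 1478, 1320 and 1441, with overlapping groups and 0.05. TMLHE, the first enzyme of carnitine synthesis, had -0.19 (95% interval -0.48 to 0.10). OGFOD2 had the most negative log2 fold change of the 39, -0.60 (SE 0.260, limma adjusted p = 0.346), on the fewest reads. It stood at 70.3, 80.0 and 59.1 against 39, 59.5 and 40.6 normalised reads, and SLC2A3 replicate 2 lay above the lowest empty vector library.

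Some reads of these genes could belong to others. By GENCODE 29, 22 of the 39 share exon bases with another gene, 18 of them with a gene on the opposite strand, and the sources used here do not say whether counting used strand. JMJD4 shares 53.8% of its exon bases with SNAP47, JMJD8 37.4% with STUB1 and OGFOD2 35.9% with ABCB9 and 67.3% with AC026362.1. RIOX2 shares 27.6% with CRYBG3, and ALKBH4 25.3% with ORAI2 on the opposite strand. On the same strand, KDM4A shares 40.2% with AL451062.3 and ALKBH6 25.1% with AC002116.1. AL451062.3 and AC002116.1 each had a mean of 0 normalised reads in both groups. ORAI2 had means of 6943 normalised reads with the empty vector and 7084 with SLC2A3, against 1061 and 1062 for ALKBH4. KDM5C, ALKBH2 and KDM3B share none, and KDM2B shares 3.22% with RNF34.

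The call for KDM5C depended on the test more than its size did. Over the 18 alternatives its log2 fold change ran from -0.20 to -0.14 and it was called in 9. ALKBH2 ran from 0.25 to 0.33 and was called in 7, KDM3B from -0.24 to -0.12 and was called in 6, and KDM2B from -0.18 to -0.12 and was called in 1. edgeR with TMM factors called 3 of the 39 (7.69%), 1 higher and 2 lower, among 3.29% of 18630 genes, 1.53% higher and 1.76% lower. DESeq2 called 4 of the 35 members to which it gave an adjusted p (11.4%), 1 higher and 3 lower, among 7.98% of 9827 genes, 3.49% higher and 4.49% lower. Limma on genes with 50 or more normalised reads in 3 libraries called 3 (7.69%), KDM5C, KDM3B and ALKBH2, among 5.53% of 13374 genes, 2.41% higher and 3.12% lower. The share of all genes called was 3.27% with edgeR under relative log expression scaling, where 3 members were called, and 3.05% under upper-quartile scaling, where 2 were. It was 3.24% with limma-voom and 1.39% without a filter, with KDM5C and ALKBH2 called in both. It was 1.52% with a pseudocount of 5, where KDM5C was called, and 1.01% with a pseudocount of 0.1, 1.30% with the replicate number as a block and 2.18% after removal of the length and GC trend, where no member was. With 1 library left out it was 0.982%, 1.74% and 0.824% without empty vector replicate 1, 2 and 3 in turn and 1.39%, 1.09% and 0.699% without SLC2A3 replicate 1, 2 and 3. Of these 6 fits, KDM3B was called without empty vector replicate 2 and KDM5C without SLC2A3 replicate 1. Without both libraries highest in RN7SL1 it was 2.02%, and KDM3B was the member called. No more than 4 members were called in any of the 18.

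**Figure D4:**
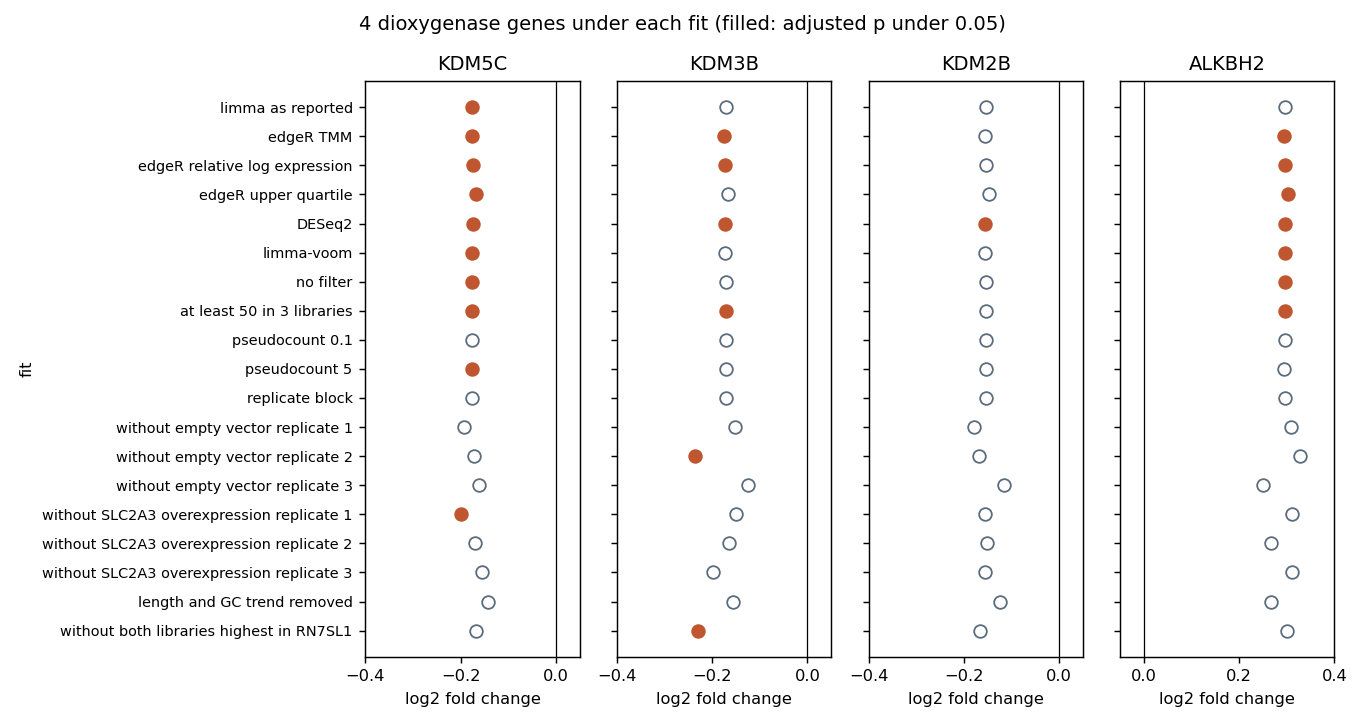
Log2 fold change of KDM5C, KDM3B, KDM2B and ALKBH2 under the limma fit and 18 alternatives, filled where the adjusted p is under 0.05. Each gene lies on 1 side of 0 in all of these fits, while KDM5C was called in 9 of the alternatives, ALKBH2 in 7, KDM3B in 6 and KDM2B in 1.

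The enzymes that set the marks were compared with those that remove them. Of 13 H3K4 methyltransferases and core partners, 3 fell, 0 rose and 10 did not pass, with 12 of 13 log2 fold changes below 0 and a median of -0.12. Over all tested genes 0.800% were called lower, 13935 of 28015 log2 fold changes were below 0 and the median was 0.00. The separate limma fit on genes with 50 or more normalised reads in 3 libraries called 3.12% of 13374 genes lower. The list was chosen with earlier results of these data known. SETD1A, a catalytic subunit of the COMPASS complex, stood at 6311, 6077 and 6800 normalised reads against 5626, 5445 and 5382, with a log2 fold change of -0.22 (limma adjusted p = 0.0101). KMT2D stood at 10975, 11209 and 11912 against 10326, 8292 and 9983, with -0.26 (limma adjusted p = 0.0106), and SLC2A3 replicate 2 was lowest. KMT2B stood at 4723, 4645 and 5115 against 4370, 4158 and 3845, with -0.23 (limma adjusted p = 0.0178). For each of these 3 genes all SLC2A3 libraries lay below all empty vector libraries. Each kept its call in 4 of 6 fits with 1 library left out, and in the other fits the adjusted p reached 0.138 for SETD1A, 0.0775 for KMT2D and 0.221 for KMT2B. After a trend with exon length and GC content was removed they were still called (adjusted p = 0.0096, 0.00128 and 0.0136), whereas KDM5C was not (log2 fold change -0.14, adjusted p = 0.0632). Of the 13, 7 had an unadjusted p under 0.05, against 11.8% of all tested genes, and edgeR called 4, with SETD1B added, against 3.29% of the genes it tested. SETD1B was called in 6 of the 18 alternatives.

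**Figure D5:**
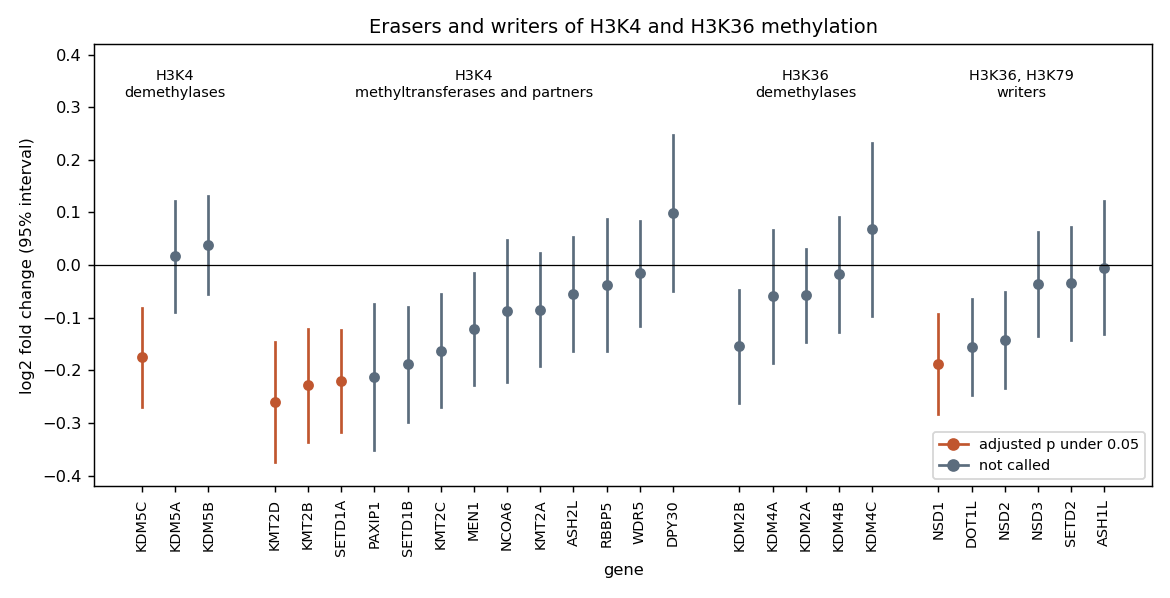
Log2 fold changes with 95% intervals of demethylases and methyltransferases of H3K4 and H3K36 (with the H3K79 writer DOT1L). KDM5C, KMT2D, KMT2B, SETD1A and NSD1 are past the threshold, all below 0, and KDM5A and KDM5B lie at 0.02 and 0.04.

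Of 6 writers of H3K36 and H3K79 methylation, NSD1 fell and 5 did not pass, with a median of -0.09 and 6 of 6 log2 fold changes below 0. Of the 6, 3 had an unadjusted p under 0.05 (NSD1, DOT1L and NSD2), and edgeR called NSD1 and DOT1L. DOT1L, the H3K79 methyltransferase, had -0.16 (limma adjusted p = 0.0793, edgeR adjusted p = 0.0376) and was called in 6 of the 18 alternatives. NSD1, a dimethyltransferase of lysine 36, stood at 6028, 5916 and 6284 normalised reads against 5454, 5068 and 5491, without overlap, with a log2 fold change of -0.19 (limma adjusted p = 0.0322). It kept its call in 2 of 6 fits with 1 library left out, and its adjusted p reached 0.213 in the others. None of 6 H3K9 methyltransferases passed, EHMT1 being nearest with -0.16 (limma adjusted p = 0.222). None of 8 genes of the H3K27 methyltransferase complex passed, and all 8 log2 fold changes were below 0 (median -0.08), as were 13935 of the 28015 over all tested genes. PHF19, a PRC2 accessory protein, was nearest with -0.18 (limma adjusted p = 0.128).

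None of 8 PRC1.1 partners of KDM2B passed with limma. BCOR, the scaffold of that complex, had -0.14 (limma adjusted p = 0.0941) and was called by edgeR (adjusted p = 0.0488). The flavin-dependent demethylases KDM1A and KDM1B need neither iron nor vitamin C. With the CoREST partners of KDM1A they made a list of 6 genes, of which 0 passed the threshold. RCOR1 was nearest with -0.13 (limma adjusted p = 0.411), and KDM1A had 0.07. Of 8 further genes of the superfamily, 7 were tested and 0 passed, with KDM4E at 0 reads. JARID2, a JmjC protein without demethylase activity that works with PRC2, was nearest with 0.11 (limma adjusted p = 0.319). Of 8 enzymes of 2-oxoglutarate and 2-hydroxyglutarate metabolism, 0 passed with limma. IDH2, which makes 2-oxoglutarate in mitochondria, stood at 6781, 6726 and 6893 normalised reads against 6276, 6120 and 5975, with -0.15 (limma adjusted p = 0.0793), and edgeR called it (adjusted p = 0.0414). For the lists with 0 calls by limma, edgeR called BCOR and IDH2 and no other member. An unadjusted p under 0.05 was reached by 1 of 6 H3K9 writers, 3 of 8 H3K27 complex genes and 2 of 8 PRC1.1 partners. It was also reached by 1 of 6 flavin and CoREST genes, 2 of 7 further superfamily genes and 2 of 8 metabolic enzymes. The share over all tested genes was 11.8%.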

How the data were processed

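RNA-seq libraries were made from OCI-AML3 cells with a directional kit, per the labels' protocols. BWA, TopHat2 and the build hg38 are named in the submitters' processing notes without role, and the sources used here do not give the counting tool, annotation or strand setting. Each deposited file gives a normalised signal per gene, which is the read count divided by 1 factor per library. 100% of values were whole multiples of 1 step per library within 0.001 reads, and reads were recovered from these steps. Factors were 0.936 to 1.08. For empty vector replicates 2 and 3 the step was so near 1 that the values barely differ from whole numbers, so their recovery could not be checked as well as in the other 4 libraries, and the count tests that use them are alternatives only.

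Log2(value + 1) was fitted with limma 3.58.1 (R 4.3.3, trend) with group as its single term, for the 28015 genes that reached 1 in 3 or more libraries, and fold changes of low genes are understated. Adjusted p-values are Benjamini-Hochberg over all of them. edgeR 4.0.16 (called 285 genes higher and 328 lower), DESeq2 1.42.0 and limma-voom were run on recovered reads as alternatives. The functions were run on simulated data with planted changes larger than those of KDM5C and ALKBH2. That run does not show their power for changes as small as these. Replicates of a group differed by more than counting noise (chi-square divided by genes 3.50 to 6.78) and were all kept. Exon lengths, positions and overlaps are from GENCODE 29 (GRCh38), which may differ from the authors' annotation. Groups were taken from the titles.

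The members and gene lists were chosen with earlier results of these data known. By rule, library values are given for members past the threshold in limma or edgeR and for the member with the largest and smallest log2 fold change and the highest level per kb in each role group. From each other list up to 4 genes past the threshold are named, or the one with the smallest p. The lists were H3K4, H3K9, H3K27, and H3K36 and H3K79 writers, PRC1.1, flavin-dependent demethylases and further superfamily genes. The others were N6-methyladenosine genes, ALKBH partners, 2-oxoglutarate enzymes and HIF-induced JmjC genes.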

Additional observations from a re-analysis of the deposited data

How the results depend on the processing

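SLC2A3 stayed past the threshold in every one of the 18 alternatives, and KDM5C kept its sign in all of them. Of the 38 dioxygenase genes without a call, 3 (ALKBH2, KDM3B and KDM2B) were called in at least 1 alternative, and 14, all uncalled in each fit, had a sign that turned. Over all genes, edgeR with relative log expression scaling called 297 higher, edgeR with upper-quartile scaling 303 higher, DESeq2 343 higher and 441 lower, and limma with at least 50 normalised reads 322 higher and 417 lower, against 194 and 224 in the limma fit. A pseudocount of 0.1 gave 144 lower and removal of the length and GC trend 347 lower, and the cause was not tested. Fits that left out 1 library gave 100 to 222 higher and 88 to 244 lower, with fewer samples.

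Members called higher, 0 in the limma fit, were 1 (ALKBH2) with edgeR under each of 3 scalings, with DESeq2, with limma-voom, without a filter and with at least 50 normalised reads. Members called lower, 1 in the limma fit, were 2 with edgeR (TMM or relative log expression) and with at least 50 normalised reads, 3 with DESeq2, and 0 with a pseudocount of 0.1, after trend removal and with a replicate block, and 0 to 1 with 1 library left out. KDM5C kept its direction but lost its call with a pseudocount of 0.1 (log2 fold change -0.18, adjusted p = 0.0708) and after trend removal (-0.14, adjusted p = 0.0632). Without 1 library its value was -0.20 to -0.16, and without both libraries highest in RN7SL1, an alternative chosen after seeing the data, -0.17 (adjusted p = 0.091). With a replicate block KDM5C had -0.18 (adjusted p = 0.0921), and the block gave 167 genes higher and 196 lower. Across 12584 genes, deviations of equal replicate numbers had correlations of -0.09, 0.01 and -0.00, so no broad shared pattern was seen. RN7SL1 was still highest in replicate 2 of both groups. Few reads limit OGFOD2, KDM7A, ALKBH6 and TMLHE.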

Other observations

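9 of the 39 genes start within 1000 bases of a protein-coding gene on the opposite strand by GENCODE 29, and 0 of these 9 neighbours passed with limma. edgeR called 0 of the 9, and 2 of them had an unadjusted p under 0.05 with limma, as had 11.8% of all tested genes. The log2 fold changes had the same sign in 4 pairs and opposite signs in 5. One was SLIRP, a mitochondrial RNA-binding protein whose start lies 51 bases from that of ALKBH1. SLIRP stood at 1786, 1963 and 1800 normalised reads in the empty vector libraries and at 1938, 2067 and 2099 in the SLC2A3 libraries, with a log2 fold change of 0.14 (limma adjusted p = 0.336), beside 0.25 for ALKBH1. The other was REEP3, 487 bases from JMJD1C, at 635, 634 and 592 against 653, 725 and 722 normalised reads, with 0.17 (limma adjusted p = 0.401), beside 0.10 for JMJD1C. MAIP1, 419 bases from TYW5, had 0.03 beside 0.26 for TYW5. HEXDC, 319 bases from OGFOD3, had -0.07 with groups that did not overlap, beside 0.04 for OGFOD3. CCDC77 had -0.08 beside 0.02 for KDM5A, and DIRC2 0.04 beside -0.12 for HSPBAP1. These pairs were chosen after their values were seen.

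Across the 39 genes the log2 fold change was lower for transcripts of higher GC content, with Pearson's r of -0.40 and Spearman's rho of -0.33. Over 27206 tested genes with annotation r was -0.04 and rho -0.05. Genes of 1 library share its base composition bias and are not independent replicates, so this is a description only.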
